A study of Mus musculus with 14 samples.

Results

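Across 3 control chromatin immunoprecipitation (ChIP-seq) libraries for TDP-43, 1565 peaks of the largest list, replicate 1, were overlapped by 1 bp or more by a peak of replicate 2 and by a peak of replicate 3, with the mitochondrial genome left out. The sites were thus chosen by their presence in 3 peak lists, so their recurrence is no finding. They were 5.27% of the 29703 peaks of replicate 1. A further 4092 of its peaks were shared with 1 other control and 24046 with none. All libraries came from C2C12 cells, a mouse myoblast line that fuses into myotubes when serum is lowered, taken on day 2 of differentiation. The 6 control lists cover TDP-43 in 3 libraries and, in 1 library each, MyoD, Myogenin and the elongating form of RNA polymerase II, whose C-terminal repeats carry phosphate on serine 2 (Pol II S2P). The 4 siMyolinc lists hold 1 library of each antibody from cells transfected with 10 nM of siRNA targeting Myolinc, a long noncoding RNA, before differentiation, and the labels do not say whether control cells had received a control siRNA. Of the 1565 shared sites, 592 overlapped a peak of the control Pol II S2P list and 160 a peak of the siMyolinc TDP-43 list. That left 518 in the Pol II S2P list alone, 86 in the siMyolinc list alone, 74 in both and 887 in neither.

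TDP-43, the product of Tardbp, is a nuclear DNA- and RNA-binding protein with a pair of RNA recognition motifs that favour UG-rich RNA and TG-rich DNA. It is known for splicing repression, for binding its own transcript, and for its loss from the nucleus in motor neuron disease and in some muscle diseases. In the nucleus it acts on transcripts as elongating polymerase makes them.

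The promoters below show the stretch of DNA that a shared site covered upstream of 6 transcription starts, taken from each of the 4 groups of sites. The sequences are the 250 bases before the annotated start, read 5′ to 3′ on the gene's strand from RefSeq (GRCm38.p6, the assembly that mm10 names). Capitals mark the bases that lie inside the replicate 1 peak. Ankrd45 (chr1:161142462-161142711, plus strand) and Sgcd (chr11:47379326-47379575, minus strand) lay in neither list. Sgcd encodes delta-sarcoglycan, a part of the dystrophin-associated complex. In the Pol II S2P list were 4930563M20Rik (chr8:116801413-116801662, minus strand) and Fam229a (chr4:129490940-129491189, plus strand). The authors' annotation names Fam229a as nearest gene of its site, while the transcript in the promoter class matched Tssk3 in RefSeq. Tmprss12 (chr15:100280587-100280836, plus strand) lay in the siMyolinc list, and Myt1l (chr12:29534655-29534904, plus strand), a neuronal zinc finger factor, in both.
Ankrd45: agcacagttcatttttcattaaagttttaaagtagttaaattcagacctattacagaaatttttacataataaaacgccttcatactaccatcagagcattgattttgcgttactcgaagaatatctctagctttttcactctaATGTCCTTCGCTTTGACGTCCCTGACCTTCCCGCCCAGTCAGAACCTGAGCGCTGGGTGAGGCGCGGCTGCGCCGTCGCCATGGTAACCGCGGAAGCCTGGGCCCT
Sgcd: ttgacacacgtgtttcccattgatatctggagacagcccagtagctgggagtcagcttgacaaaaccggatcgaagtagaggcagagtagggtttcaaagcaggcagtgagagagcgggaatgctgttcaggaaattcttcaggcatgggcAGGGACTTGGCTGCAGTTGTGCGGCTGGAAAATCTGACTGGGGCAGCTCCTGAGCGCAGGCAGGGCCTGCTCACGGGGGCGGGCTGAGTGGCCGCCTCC
4930563M20Rik: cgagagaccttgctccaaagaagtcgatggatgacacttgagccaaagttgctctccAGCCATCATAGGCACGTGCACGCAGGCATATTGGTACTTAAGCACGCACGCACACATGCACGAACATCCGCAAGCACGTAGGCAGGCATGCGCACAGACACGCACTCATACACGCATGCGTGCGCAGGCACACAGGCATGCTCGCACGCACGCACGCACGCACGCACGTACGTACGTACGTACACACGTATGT
Fam229a: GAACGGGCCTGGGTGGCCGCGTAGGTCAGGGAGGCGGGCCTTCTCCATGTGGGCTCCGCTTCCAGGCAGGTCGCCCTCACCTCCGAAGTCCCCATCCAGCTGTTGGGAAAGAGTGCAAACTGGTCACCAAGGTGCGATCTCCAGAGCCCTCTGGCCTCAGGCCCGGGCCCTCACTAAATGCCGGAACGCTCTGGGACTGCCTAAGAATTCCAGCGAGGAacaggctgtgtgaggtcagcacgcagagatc
Tmprss12: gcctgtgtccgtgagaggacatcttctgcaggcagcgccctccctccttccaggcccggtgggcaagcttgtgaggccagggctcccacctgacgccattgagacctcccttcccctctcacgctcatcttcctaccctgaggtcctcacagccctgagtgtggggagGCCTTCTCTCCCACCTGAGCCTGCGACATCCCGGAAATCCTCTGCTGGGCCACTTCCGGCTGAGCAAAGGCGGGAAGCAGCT
Myt1l: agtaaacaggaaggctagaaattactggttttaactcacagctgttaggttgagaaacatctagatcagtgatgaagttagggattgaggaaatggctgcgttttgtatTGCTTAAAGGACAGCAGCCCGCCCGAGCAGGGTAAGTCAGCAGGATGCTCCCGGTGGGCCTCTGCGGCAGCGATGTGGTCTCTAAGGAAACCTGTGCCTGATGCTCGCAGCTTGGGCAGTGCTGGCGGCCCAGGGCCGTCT
The capitals of 4930563M20Rik hold 17 copies of CACG or CGTG and 2 of TGTGTG or CACACA, whereas the covered bases of the 5 other promoters hold no TGTGTG or CACACA. Over all 89 promoter windows (250 bases before to 50 after a start) that a shared site touched, 16 held TGTGTG on either strand, which is 18.0% (Wilson 95% interval 11.4 to 27.2%), beside 21.1% of all 32851 windows. The motif was in 8 of 27 windows whose site lay in the Pol II S2P list and in 8 of 62 whose site did not, or 29.6% (15.9 to 48.5%) and 12.9% (6.69 to 23.4%). The E-box letters CANNTG, which read the same on both strands, were in 74.2% of the 89 windows and in 72.3% of all windows. Median GC content was 58.3% in the 89 and 52.7% in all.

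Most shared sites were small. With the top 1% of scores in each list left out, every peak score was a whole multiple of a fixed step, taken here as 1 sequenced tag. The scores left out were divided by the same step and rounded, without that check. Scaled as HOMER does by default, the 3 control libraries held about 1394000, 1087000 and 962000 tags, Pol II S2P control 1455000 and siMyolinc TDP-43 3253000. The median shared site carried 11 tags in replicate 1, 7 in replicate 2 and 7 in replicate 3, and the medians of the whole lists were 8, 6 and 6. Where the site was in the Pol II S2P list its median there was 7 tags, and in the siMyolinc list 9. The range was wide, from 4 tags to 2828 in replicate 1, to 3670 in replicate 2 and to 4760 in replicate 3. Across the 1565 sites, tags in replicates 1 and 2 correlated with Spearman's rho 0.171, replicates 1 and 3 with 0.166, and replicates 2 and 3 with 0.232. With 28 satellite sites left out these were 0.136, 0.129 and 0.194. The points share libraries and a lower limit on tags, so the values describe these lists alone.

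**Figure D1:**
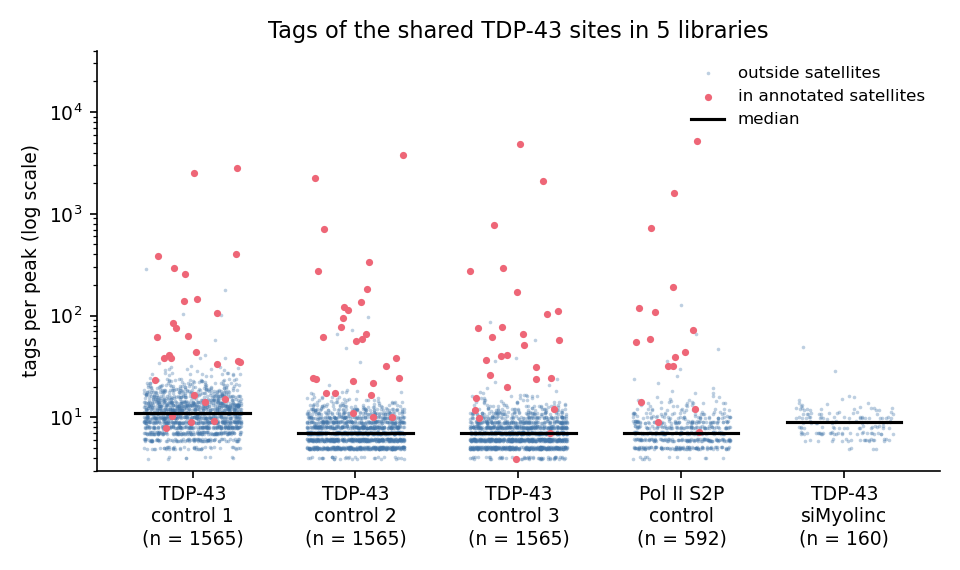
Tags per peak on a log scale for the shared sites in the 3 control TDP-43 libraries, Pol II S2P control and siMyolinc TDP-43; each point is 1 site, red points lie in annotated satellites and the black bar is the median. Most sites sit near the medians of 7 to 11 tags, and satellites hold the highest points in every library but siMyolinc TDP-43, which lists none of them.

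The rule required overlap with replicates 2 and 3, so the closeness of these peaks is no finding. Peaks of the Pol II S2P and siMyolinc lists were likewise counted only where they overlapped a site. Shared sites overlapped their partner by a median of 198 bp in replicate 2 and 199 bp in replicate 3, where replicate 1 peaks had a median width of 249 bp. Centres were a median of 36 and 35 bp apart, and 38.2% and 39.1% of them were within 25 bp. The Pol II S2P peaks were as close, at a median of 35 bp. The siMyolinc TDP-43 peaks were 47.5 bp away, with 25% within 25 bp. Just inside the rule stood 80 sites that overlapped a partner by 50 bp or less, of which 37.5% were in the Pol II S2P list, and just outside stood 115 peaks with a gap of 100 bp or less, of which 27.0% were.

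Of the 7 other lists, that of elongating polymerase held the most shared sites, although at 10716 peaks it is shorter than the 6 others. Of the 1565 sites, 37.8% (35.5 to 40.3%) overlapped a Pol II S2P peak, against 12.0% of all replicate 1 peaks. The share was 7.83% for peaks in no other control and 26.7% for peaks in 1 other. In the siMyolinc TDP-43 list the shared sites reached 10.2% (8.82 to 11.8%), against 5.88% of all replicate 1 peaks, and 4.97% and 9.56% for peaks in no and in 1 other control. This share was 17.0% with peaks extended by 500 bp and 6.43% with all lists shortened to the 8162 best peaks. An exact permutation test of the 3 control and 1 siMyolinc libraries allows no p below 0.25, and Pol II S2P has 1 library per condition, so no test was made and the intervals cover counting error only. Any pair of controls in place of all 3 gave 2911 to 3975 shared sites, of which 31.4 to 31.7% were in the Pol II S2P list.

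**Figure D2:**
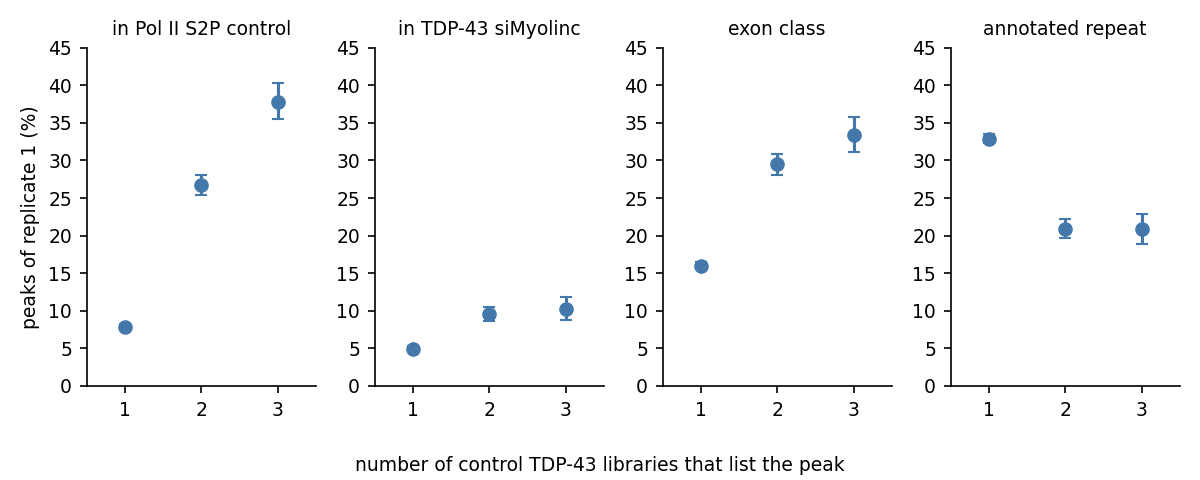
Share of replicate 1 peaks (%) found in the control Pol II S2P list, found in the siMyolinc TDP-43 list, annotated as exon and annotated as repeat, by the number of control TDP-43 libraries that list the peak; bars are Wilson 95% intervals. The Pol II S2P share rises from 7.83% to 26.7% to 37.8%, the siMyolinc share from 4.97% to 9.56% to 10.2%.

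Taller peaks were more often in the Pol II S2P list, and at each height shared sites were above the rest. Among peaks of 4 to 6 tags in replicate 1, 29.3% (22.5 to 37.1%) of the 147 shared sites were in the Pol II S2P list, against 3.62% of peaks in no other control. Among those of 14 tags or more it was 49.0% (44.3 to 53.7%) of 431 shared sites, against 16.8%. Peaks in 1 other control lay nearer, at 22.2% (19.1 to 25.7%) and 32.3% (29.1 to 35.7%) in these bins. In the lower bin their interval overlapped that of the shared sites. The siMyolinc list was flatter: 8.84% of shared sites at 4 to 6 tags, 9.73% at 7 to 9, 9.92% at 10 to 13 and 11.6% at 14 or more. Peaks in 1 other control were at 6.82%, 8.74%, 10.6% and 11.4% in the same 4 bins, inside the intervals of the shared sites.

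**Figure D3:**
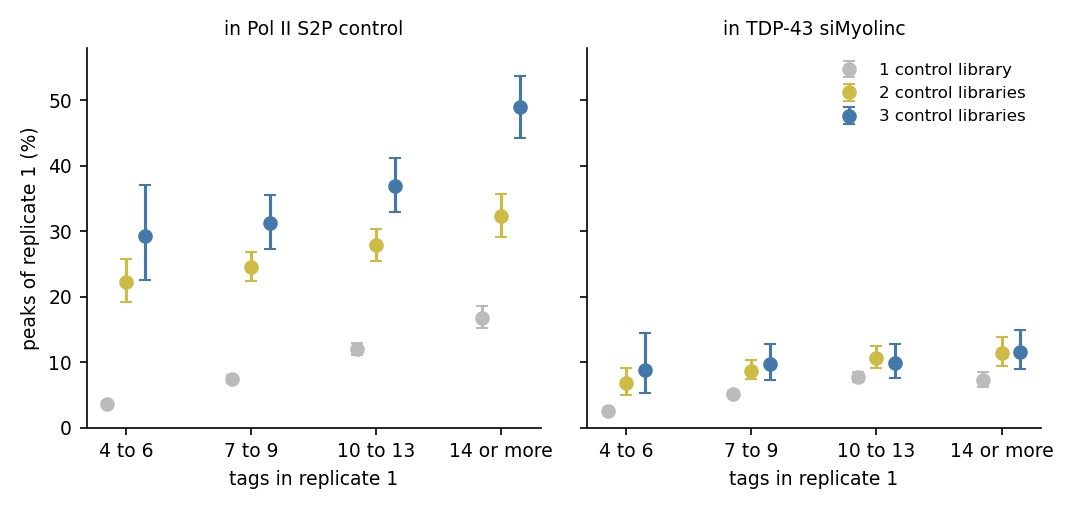
Share of replicate 1 peaks (%) in the control Pol II S2P list and in the siMyolinc TDP-43 list by tags in replicate 1, for peaks in 1, 2 or 3 control TDP-43 libraries; bars are Wilson 95% intervals. Shared sites stand highest in the Pol II S2P panel in all 4 bins, from 29.3% to 49.0%, and the siMyolinc panel stays below 12% for each point.

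The 2 splits overlapped. Sites in the siMyolinc TDP-43 list were in the control Pol II S2P list in 46.2% of cases, the others in 36.9%, a difference of 9.38 points (Newcombe 95% interval 1.41 to 17.5). They also overlapped the siMyolinc Pol II S2P list more often, at 25% against 13% (12.0 points, 5.70 to 19.5). Over all shared sites that list was reached by 14.2%, beside 10.0% of replicate 1 peaks. Sites in both siMyolinc lists numbered 40, and 21 of these were in control Pol II S2P as well.

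MyoD and Myogenin, the transcription factors that drive myoblasts into muscle, each met fewer of the sites than control Pol II S2P did. Control MyoD peaks overlapped 87 shared sites, 5.56% beside 2.76% of all replicate 1 peaks, and control Myogenin peaks 132, or 8.43% beside 5.33%. After siMyolinc the shares were 12.3% for MyoD (8.50% of all) and 5.05% for Myogenin (2.83% of all). The lists themselves differ, so the shares before and after siMyolinc are not a like comparison. Off the mitochondrial genome MyoD had 71878 peaks in control and 109522 after siMyolinc, and Myogenin 115000 and 20441. Median peak width went from 231 to 75 bp for MyoD and from 219 to 75 bp for Myogenin. MyoD overlap was at 8.28% for sites in the Pol II S2P list and 3.91% for the others (4.37 points, 1.96 to 7.08), while Myogenin stood at 8.78% and 8.22% (0.56 points, -2.21 to 3.56). Both factors shared 14 sites. Of the shared sites 571 were in none of the other 7 lists, 627 in 1 and 276 in 2. A single site, nearest the predicted gene Gm14496 at chr2:181929192-181929440, was in 5 of them, with 15, 16 and 12 tags in the controls, 25 in Pol II S2P and 50 in siMyolinc TDP-43.

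Exons were the leading class of shared sites. The authors' annotation placed 522 of them (33.4%) in an exon and 361 (23.1%) in an intron, 484 (30.9%) outside genes and 88 (5.62%) at a promoter, with 47 in 3′ UTRs, 34 at transcription ends, 15 in noncoding exons and 14 in 5′ UTRs. Peaks in 1 other control were 29.5% exonic, 31.2% intergenic and 26.7% intronic. The rest of replicate 1, which includes them, was 18.0% exonic, 39.8% intergenic and 32.9% intronic. Shared sites exceeded it by 15.4 points in exons (13 to 17.8) and were below it by 8.84 points between genes (-11.2 to -6.44 as shared minus rest). Put the other way, 9.36% of the exon peaks of replicate 1 were shared, 6.78% of promoter peaks, 4.15% of intergenic peaks and 3.75% of intron peaks. In the bin of 14 tags or more the exon shares of shared sites and of peaks in no other control were 31.1% and 31.0%, whereas at 4 to 6 tags they were 20.4% and 6.56%. Peaks in 1 other control were at 38.2% (34.9 to 41.7%) at 14 tags or more, above the shared sites. At 4 to 6 tags they were at 20.1% (17.2 to 23.5%), nearly the same as the shared sites. Among the exon sites, 26.2% lay in the last exon of the transcript and 13% in the first exon, beside 21.1% and 10.9% in the rest of replicate 1.

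The exon share was nearly equal on both sides of the Pol II S2P split. It was 33.4% in the list and 33.3% outside it, a difference of 0.15 points (-4.62 to 5.00). In the siMyolinc TDP-43 list it was 31.9% against 33.5%, a difference of -1.65 points (-8.82 to 6.30). With peaks extended by 500 bp that difference became 8.55 points (3.23 to 14), and with replicates 2 and 3 alone 5.77 points (0.026 to 11.8), so its direction rests on how sites were defined. The 74 sites in both lists were 25.7% exonic and 35.1% intergenic, and the 86 in the siMyolinc list alone 37.2% and 26.7%. Sites in the Pol II S2P list lay less often within 1000 bp of an annotated start, at 9.12% against 14.4% (-5.27 points, -8.39 to -1.95), and were at promoters in 4.39% against 6.37% (-1.98 points, -4.18 to 0.42).

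**Figure D4:**
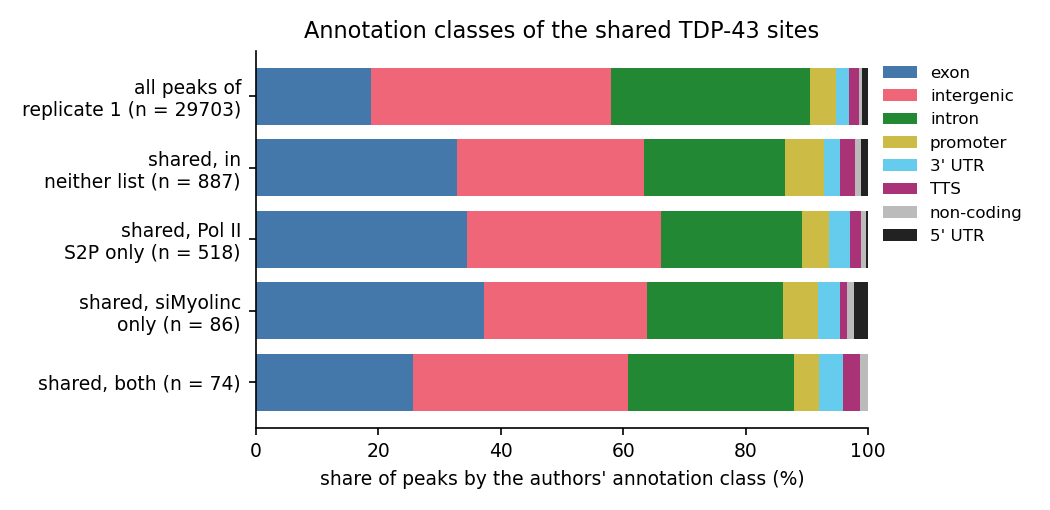
Annotation classes (% of peaks) of all replicate 1 peaks and of the shared sites in neither list, in Pol II S2P alone, in siMyolinc TDP-43 alone and in both. Exons make up 18.8% of all replicate 1 peaks and 25.7% to 37.2% of the 4 groups of shared sites.

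Annotated repeats held 326 shared sites, 20.8% against 31.1% of the rest. Peaks in 1 other control were nearly the same as shared sites, at 20.9%, and those in no other control were at 32.9%. Beside peaks in no other control, the direction turned only in the tallest bin. At 4 to 6 tags 25.9% (19.5 to 33.5%) of shared sites were in repeats against 46.1% (45 to 47.2%). At 14 tags or more it was 23.7% (19.9 to 27.9%) against 17.4% (15.8 to 19.1%). Peaks in 1 other control were at 28.7% and 16.4% in these bins. The tallest bin includes satellites, which made up 20 of the 25 shared sites with the best mean rank. Shares without satellites were not computed. Sites in and out of the Pol II S2P list had 22.8% and 19.6% in repeats (3.17 points, -0.96 to 7.44), and those in and out of the siMyolinc list 18.8% and 21.1% (-2.32 points, -8.05 to 4.74). Both differences depended on the definition of a site. The Pol II S2P difference became 8.28 points (2.29 to 14.5) with lists of equal length. The siMyolinc difference became -11 points (-16.9 to -1.78) with scores below the median left out, -6.03 (-9.29 to -2.15) with peaks extended by 500 bp and -5.53 (-9.13 to -1.34) without replicate 3. LINEs, the autonomous retrotransposons, led with 123 sites, followed by 83 simple repeats, 63 LTR elements, 28 satellites and 17 SINEs. SINEs, which depend on LINE enzymes to move, made up 1.09% of shared sites, 1.56% of peaks in 1 other control and 4.08% of the rest. The young mouse L1 families L1Md_T, L1Md_F2 and L1Md_A took 41, 39 and 23 sites. L1Md_F2 had 14 of its 39 in Pol II S2P and 10 in siMyolinc TDP-43, while L1Md_A had 7 and 1 of 23.

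The simple repeats divided by sequence. Runs of CA or TG, the DNA form of the letters TDP-43 favours in RNA, held 27 shared sites, or 1.73% (1.19 to 2.50%), beside 4.72% of all replicate 1 peaks and 5.41% of peaks in no other control. Runs of CACG or CGTG held 20, or 1.28% (0.829 to 1.97%), beside 0.421%. Of the (CACG)n sites 7 of 11, and of the (CGTG)n sites 5 of 9, were in Pol II S2P. (CG)n held 11 shared sites among its 32 peaks of replicate 1. A low share was not particular to CA or TG. All other simple repeats together held 25 shared sites, or 1.60% (1.08 to 2.35%), beside 3.42% of all replicate 1 peaks and 3.89% of peaks in no other control. Within that group (CTG)n went the other way, with 7 of its 36 peaks shared.

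Satellite DNA, the tandem repeats of mouse pericentromeres, gave the tallest shared sites. Satellites made up 20 of the 25 sites with the best mean rank over the 3 lists. The major satellite GSAT_MM accounted for 23 shared sites of only 26 peaks in replicate 1, and SYNREP_MM for 4 of 4. Satellites as a class were mostly not shared. Of their 208 peaks in replicate 1, 28 were shared and 176 were in no other control. Of the 28 satellite sites 17 were in Pol II S2P and none in siMyolinc TDP-43, whose whole list of 24960 peaks has no GSAT_MM peak. The satellites took 29.5%, 41.6% and 44.5% of all tags over the shared sites in replicates 1 to 3, and 64.0% of the Pol II S2P tags. Outside them the tallest shared site had 292 tags in replicate 1, 99 in replicate 2 and 109 in replicate 3. Copies of satellites are near-identical and many are missing from the assembly, so a tag's place among them is uncertain. How the authors treated tags with several placements is not given in the sources used here. Without any repeat peak, 1210 shared sites were left, with 36.6% in Pol II S2P and 10.4% in siMyolinc TDP-43.

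Sites in the Pol II S2P list alone, meaning outside the siMyolinc TDP-43 list, were led by satellites. The site nearest Lrrc4c at chr2:98662561-98662809 had 2485, 3670 and 4760 tags in the controls and 5235 in Pol II S2P, and its neighbour at chr2:98667007-98667255 had 2828, 2287 and 2075, with 1587 in Pol II S2P. Both are more than a megabase from the start of Lrrc4c, which encodes a synaptic adhesion protein. A site in intron 4 of Chl1, a neural adhesion molecule, at chr6:103649018-103649266 had 373, 707 and 766 tags and 725 in Pol II S2P. The Pol II S2P tags were above all 3 TDP-43 values at the first site, below all 3 at the second and between them at Chl1. All 3 lie in satellites. The Lrrc4c sites were listed for other antibodies too, with 315 and 317 tags in siMyolinc MyoD, and the second with 628 in siMyolinc Myogenin. The remaining leaders were a GSAT_MM site nearest Gm5458 (chr14:19418645-19418893) with 297, 278 and 275 tags and 193 in Pol II S2P, and 1 nearest Mir101c (chr9:3000084-3000332) with 261, 180 and 167, and 108 in Pol II S2P. The Gm5458 site also had 103 tags in siMyolinc Myogenin, while those at Chl1 and nearest Mir101c were in no further list.

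Sites in neither list were led by a GSAT_MM site nearest the noncoding 4933422A05Rik (chr9:35305329-35305577), with 408, 344 and 290 tags. The second, at chr11:3135532-3135780, is nearest the pseudogene Pisd-ps1 and lies in exon 26 of 33 of Sfi1, a centrosome protein gene, with 176, 99 and 109 tags. It was followed by sites nearest Gm5458 (chr14:19416147-19416395; 137, 136 and 109 tags), Gtpbp4, a ribosome assembly GTPase (chr13:9011667-9011915; 98, 66 and 58), and Mir101c (chr9:3000712-3000960; 83, 63 and 62). In all 5 replicate 1 had the most tags of the 3 control libraries, and it is the deepest of them. The site in Sfi1 was also listed for siMyolinc Myogenin, with 229 tags, and the site nearest Gtpbp4 for siMyolinc MyoD, with 98. The others of the 5 were in no further list.

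The 86 sites in the siMyolinc list alone were of ordinary height. Their leader was an L1Md_F2 element in intron 1 of Stk33, a serine/threonine kinase (chr7:109410939-109411187), with 17, 13 and 10 tags in the controls and 12 after siMyolinc. A CpG island in intron 1 of Cdh8, a neuronal cadherin (chr8:99415624-99415872), had 27, 11 and 8, and 11 after siMyolinc. The site nearest Habp2 (chr19:56335040-56335288) lay in exon 33 of 40 of Nrap, a nebulin-related protein of developing myofibrils, with 19, 8 and 8 tags and 9 after siMyolinc. Exon 2 of 2 of Egr2, a zinc finger factor of myelinating cells (chr10:67540797-67541045), had 19, 6 and 13 tags and 10. The first exon of Pcdhga6, a clustered protocadherin (chr18:37707268-37707516), had 13, 13 and 11 tags and 7. The siMyolinc library is deeper than each control, so the same number of tags is a smaller share of it.

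Sites in both lists were led by an intergenic site nearest Gm13212 (chr4:145632499-145632747) with 35, 15 and 15 tags in the controls, 20 in Pol II S2P and 9 in siMyolinc TDP-43. Exon 3 of 3 of Slc25a51, a mitochondrial carrier (chr4:45399772-45400020), had 21, 14 and 10 tags, 11 in Pol II S2P and 10 in siMyolinc. An intergenic site far upstream of Slc10a2, a bile acid transporter (chr8:5639459-5639707), had 28, 10 and 9 tags, with 9 and 10. Gm14496 was the fourth of these leaders, and a CpG island nearest LOC100043315 (chr15:95228916-95229164) the fifth, with 22, 9 and 8 tags in the controls, 5 in Pol II S2P and 9 in siMyolinc. Over all 160 sites of the siMyolinc list the highest value there was 50 tags, and tags in replicate 1 and in siMyolinc had a Spearman's rho of 0.0833 over sites.

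The 88 promoter sites belonged to 88 nearest genes, 26 of them in Pol II S2P and 8 in siMyolinc TDP-43. Of 87 whose annotated transcript was found in RefSeq, 78 lay at the promoter of the nearest gene. Pisd-ps2, a pseudogene, led with 30, 14 and 17 tags in the controls and 17 in Pol II S2P. The next, nearest Ppp1r3d but annotated to the promoter of Fam217b, had 20, 11 and 11, with 7 in Pol II S2P. Then came 1700028K03Rik (23, 9 and 8 tags), Cntn1, a neural contactin (18, 10 and 7), and Gm13034 (15, 9 and 10), all in neither list. 4930563M20Rik, whose CACG-rich sequence is printed above, had 15, 8 and 14 tags and 11 in Pol II S2P. Oasl1, an interferon-induced gene, had 12, 18 and 11, with 9 in Pol II S2P. Mir3968 (15, 7 and 8), Pnldc1, a nuclease that trims piRNAs (13, 13 and 7, with 9 in Pol II S2P), and Mir6971 (13, 11 and 7) closed the leading 10. None of these 10 was in the siMyolinc list.

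The 8 promoter sites in the siMyolinc list had few tags in each library. Those also in Pol II S2P were Myt1l with 14, 6 and 12 tags in the controls and 9 after siMyolinc, L1td1, an RNA-binding protein derived from a LINE, with 10, 10 and 11, and 7, and a site nearest Aldh7a1 but annotated to the promoter of Phax, a factor of snRNA export, with 15, 5 and 10, and 5. Those outside it were a site nearest Lrat, annotated to the noncoding Rbm46os (14, 11 and 6 tags, then 7 after siMyolinc), Tmprss12 (11, 5 and 9, then 7), Tspyl3 (11, 5 and 9, then 9), Agbl4, a tubulin deglutamylase (11, 5 and 9, then 9), and Clvs2 (6, 5 and 4, then 7). Naming all 8 followed the counts rather than the naming rule.

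Muscle genes were counted both by nearest gene and by transcript. The nearest gene is not always the gene whose exon holds the site: of 514 exon sites whose transcript was found in RefSeq, 318 lay in the nearest gene and 196 in another. By nearest gene, the list of 81 muscle structure and contraction genes had 9 shared sites of 115 replicate 1 peaks, or 7.83%, and 4 of the 9 were exonic. By the gene whose transcript holds the site, it had 11 of 112, or 9.82%, and 10 of the 11 were exonic. The second count leaves out intergenic sites by construction. Both stand beside 5.27% of all replicate 1 peaks and 9.36% of its exon peaks. Of the 11 sites 3 were in Pol II S2P and 1 in siMyolinc TDP-43, and of the 9 nearest sites 3 and 0.

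Myosin heavy chains, the motors of the thick filament, held 4 of these exon sites. Perinatal Myh8 had a site in exon 30 of 40 (chr11:67299910-67300158) with 14, 8 and 7 tags and a second in exon 27 of 40 (chr11:67298365-67298613) with 11, 9 and 10, the latter with 9 tags in Pol II S2P. The adult fast Myh1 had a site in exon 35 of 40 (chr11:67220778-67221026; nearest gene Myh4) with 9, 8 and 6 tags. Embryonic Myh3 had a site in exon 27 of 41 (chr11:67094471-67094719; nearest gene Mir6923) with 9, 8 and 6, and with 8 after siMyolinc, the only one of the 11 in that list. These genes are close paralogs side by side on chromosome 11, so tags may be shared between copies.

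Other sites of the list lay in genes of calcium handling, of the thin filament and of myosin regulation. Exon 28 of 106 of Ryr1, the calcium release channel of the sarcoplasmic reticulum (chr7:29093977-29094225), had 14, 9 and 8 tags. Exon 14 of 14 of Cacnb1, a subunit of the muscle calcium channel (chr11:98002949-98003197), had 12, 12 and 6. Both were in neither list. Exon 9 of 18 of Tnnt3, fast troponin T (chr7:142507655-142507903), had 8, 7 and 7 tags and 5 in Pol II S2P, and intron 6 of Mylk2, the skeletal myosin light chain kinase (chr2:152917372-152917620), 10, 6 and 9, with 9 in Pol II S2P.

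Outside gene bodies the muscle list had the Sgcd promoter shown above, with 11, 8 and 5 tags, and intergenic sites nearest Nebl, a nebulin relative of the Z-disc, with 12, 10 and 7 tags at chr2:17818844-17819092 and 7, 5 and 5 at chr2:17755287-17755535. The second was in Pol II S2P with 6 tags. An intergenic site nearest Mylk2 (chr2:152901504-152901752) had 6, 5 and 8. In none of these 4 sites did any control exceed 12 tags.

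Of 48 myogenic regulators, 3 were the nearest gene of 4 shared sites among 99 replicate 1 peaks (4.04%), beside 5.27% of all its peaks. Exon 2 of 11 of Nfix, a factor of fetal muscle (chr8:84772083-84772331), had 17, 12 and 6 tags and 9 in Pol II S2P. A CpG island upstream of Six2 (chr17:85691927-85692175) had 14, 9 and 9. Sites nearest Srf, which activates actin genes, had 13, 10 and 6 tags at chr17:46565227-46565475, in exon 20 of 20 of Ptk7, and 4, 7 and 6 at chr17:46591775-46592023, in intron 1 of Ptk7. By transcript, Nfix had a second site, in intron 6 of 8 (chr8:84723585-84723833; 10, 11 and 10 tags), and Mymx, which encodes the fusion peptide myomixer, 1 in its exon 2 of 2 (chr17:45601431-45601679; 12, 4 and 9 tags, with 6 in Pol II S2P). None of the regulators' sites was in the siMyolinc list. Filip1, Myod1, Myog, Acta1, Cdkn1a and Tardbp itself had no shared site. Acta1, skeletal actin, was the nearest gene of 3 peaks of replicate 1 and of 1 each in replicates 2 and 3, and Filip1 and Tardbp of 0 in all 3 controls.

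The 70 RNA-binding and splicing factors had 8 shared sites in 7 nearest genes, 6.61% of 121 peaks, beside 5.27% of all replicate 1 peaks. Of these sites 1 was in Pol II S2P and none in siMyolinc. Celf4, a CUG-binding splicing regulator, had 2 in its 3′ UTR (11, 10 and 6 tags, and 14, 5 and 5). Rbfox3, a neuronal splicing factor, had 1 in intron 1 (10, 8 and 10), and Ago2, the slicer of RNA interference, 1 in intron 3 (6, 6 and 11). The site nearest Rbm4 (11, 5 and 10 tags) lay in exon 3 of 3 of its neighbour Rbm14. Sites nearest Celf2 (8, 6 and 6 tags), Tra2b (8, 7 and 6) and Srsf6 (14, 7 and 5, with 4 in Pol II S2P) were intergenic. By transcript, exon 2 of 14 of Rbm20, which controls titin splicing, was added with 7, 6 and 9 tags (chr19:53813421-53813669).

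The 52 neuronal and synaptic genes had 9 sites of 211 peaks (4.27%), beside 5.27% of all replicate 1 peaks, with 3 in Pol II S2P and 1 in siMyolinc. Nrxn2 and Nrxn3, presynaptic adhesion proteins, were among the nearest genes, Nrxn2 with 6, 8 and 8 tags at a site inside Rasgrp2 and with 5, 6 and 10 in its own intron 1, and Nrxn3 with 17, 5 and 8. Shank3, a postsynaptic scaffold, had 21, 7 and 5 tags, Lrrtm4 14, 11 and 6, Camk2a 8, 7 and 4, Gria3 6, 5 and 6, and Cacna1e 9, 10 and 5 with 7 after siMyolinc. By transcript the list had 10 sites in 6 genes among 185 replicate 1 peaks (5.41%), near the share of all peaks. Of the 10 sites 7 were in Pol II S2P, beside 37.8% of all shared sites. Of these 4 lay in Cacna1a, a neuronal calcium channel, for which the annotation names Ier2 as nearest: exon 22 of 47 with 29, 10 and 7 tags, intron 33 with 13, 12 and 11, intron 34 with 13, 5 and 6, and intron 37 with 9, 7 and 4. All 4 were in Pol II S2P and the sites in introns 33 and 34 in siMyolinc TDP-43 as well. The lists of extracellular matrix and of hepatocyte genes had 0 shared sites among 26 and 20 replicate 1 peaks, and ribosomal proteins 1 of 49.

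Protocadherins, neuronal adhesion genes looked at after values were seen, had 25 shared sites of 142 replicate 1 peaks (17.6%), 21 of them in exons, 11 in Pol II S2P and 3 in siMyolinc TDP-43. The sites fell on 23 genes, and 22 of the 25 on the clustered genes, whose isoforms each have a long first exon of their own. Pcdha12 had 23, 16 and 7 tags at chr18:37021436-37021684 and 11 in Pol II S2P, Pcdha5 13, 11 and 6 with 8 in Pol II S2P and 6 in siMyolinc, and Pcdha2 12, 6 and 7 with 8 and 15. The exons are alike in sequence, so tags may be shared between family members. Homeobox genes had 38 sites of 503 peaks (7.55%), with 18 in Pol II S2P and 4 in siMyolinc. Genes with zinc finger in their description had 49 of 744 (6.59%), olfactory receptors 12 of 187 (6.42%), potassium channel genes 14 of 271 (5.17%) and collagens 4 of 105 (3.81%), close to or below the 5.27% of all peaks. Among homeobox genes, Irx3 was nearest to 3 sites, all in Pol II S2P, the leading 1 with 25, 13 and 10 tags and 14 in Pol II S2P (chr8:91804423-91804671). Emx2 had an intergenic CpG island with 17, 6 and 11 tags, 11 in Pol II S2P and 12 in siMyolinc (chr19:59469161-59469409).

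The 1565 sites had 1403 nearest genes, of which 1270 were named for 1 site, 116 for 2 and 17 for 3 or more. Mir101c had the most, 10 GSAT_MM sites between chr9:3000084 and 3030288, 7 of them in Pol II S2P. Next were Ier2 with 5, 4 of them inside Cacna1a, and Ldhal6b, Mir8091 and Pisd-ps1 with 4 each. The Ldhal6b sites include 3 in Arid1b, a chromatin remodeller subunit, and the Mir8091 sites 3 in Slit1, an axon guidance protein. Pisd-ps1 had 58 to 292 tags in replicate 1 and 3 of its 4 sites in Pol II S2P. Genes with 3 sites were 2810429I04Rik, Gm5458, Grm4, Irx3, Lmx1b, Lphn1, Lrrc4c, Map3k1, Tbca, Tcp11, Tiam1 and Zfp423. Of these Irx3 and Lphn1 had all 3 in Pol II S2P, and Map3k1, a kinase upstream of JNK, and Tbca, a tubulin chaperone, had none. 2810429I04Rik was the only one of the 12 with a site in siMyolinc TDP-43, at 28 tags there beside 11, 9 and 7 in the controls (chr13:3373472-3373720).

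MicroRNA genes were nearest to 75 sites of 1298 replicate 1 peaks (5.78%), beside 5.27% of all its peaks, with 31 in Pol II S2P and 7 in siMyolinc. Mature sequences are printed for 2 whose own locus a shared site covered, with the seed (bases 2 to 8) in capitals, from RefSeq.
mmu-miR-3968: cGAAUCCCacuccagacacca
mmu-miR-6955-3p: aCACCUGUcuccuuugcccaca
The mature miR-3968 lies at chr11:115447969-115447989 on the minus strand, partly inside a promoter site with 15, 7 and 8 tags, and miR-6955-3p at chr15:78891891-78891912 on the plus strand, inside a site at a transcription end with 22, 8 and 8 tags. Both sites were in neither list, and the seeds differ. The peaks are of DNA and say nothing of the microRNAs' level.

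Chromosomes took unequal shares. Chromosome 8 held 9.58% (8.22 to 11.1%) of shared sites and 6.84% of replicate 1 peaks, chromosome 15 held 9.39% (8.05 to 10.9%) and 6.08%, and chromosome 19 held 5.62% (4.59 to 6.88%) and 3.71%. Chromosome 7 held 2.75% (2.05 to 3.68%) of shared sites and 4.96% of peaks, and chromosome 14 held 1.79% (1.24 to 2.57%) and 3.12%. Apart from Y, with 3 of 8 replicate 1 peaks shared, the share ran from 2.92% on chromosome 7 to 8.14% on chromosome 15. Chromosome 15 also had 48.3% of its shared sites in Pol II S2P and chromosome 1 had 19.4%. Copy number of these chromosomes in the C2C12 cells was not measured here, and its part in these shares was not tested.

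**Figure D5:**
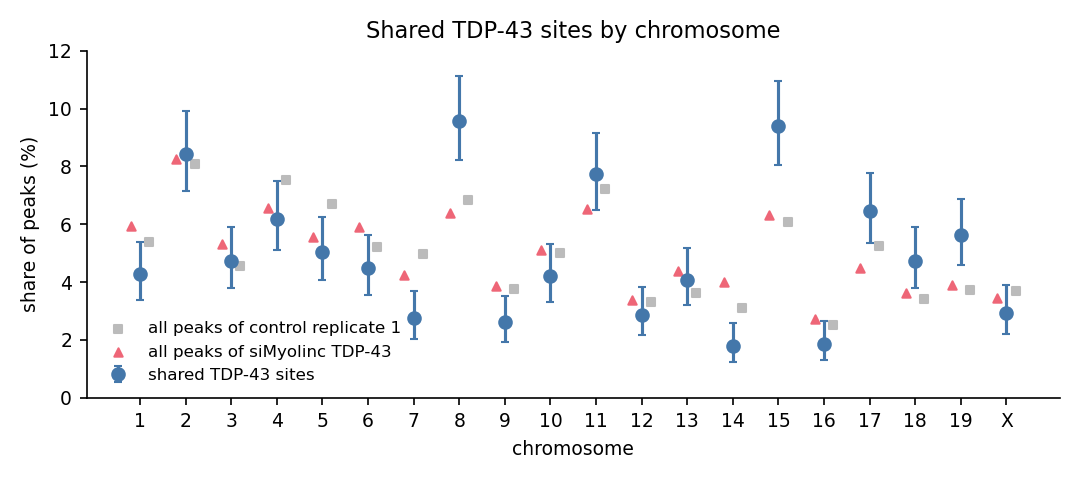
Share of peaks (%) on each chromosome for the shared sites (circles, with Wilson 95% intervals), all replicate 1 peaks (squares) and all siMyolinc TDP-43 peaks (triangles). Chromosomes 8 and 15 carry 9.58% and 9.39% of the shared sites beside 6.84% and 6.08% of replicate 1 peaks, and chromosomes 7 and 14 carry less than their share of replicate 1 peaks.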

How the data were processed

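ChIP-seq peak lists from C2C12 cells were analysed for 10 of 14 samples, and 4 input or IgG samples were not analysed here. Per the file headers and the submitters' processing notes, the authors called peaks in each library and annotated them with HOMER on mm10, the aligner, versions and calling settings being not given in the sources used here. The name of the replicate 1 list sets TDP-43 against IgG. Whether all control lists were called against the same IgG library is not given there. The part of a common background in the overlap of lists was not tested. The deposited lists, per the file headers, give a peak score, a focus ratio (a fraction, not used in results), an annotation class, a nearest gene and the distance to its start. Scores were divided by the score of 1 tag in the same list and rounded. With the top 1% of scores left out, 100% came out whole within a tolerance of 0.05. The total number of tags assumes scaling to 10000000 tags, which no header or label states.

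Overlap meant 1 bp or more, off the mitochondrial genome, and the best-scoring partner gave the tags. Shares have Wilson and differences Newcombe intervals at 95%. The intervals express counting error alone, because reads copied by PCR are not separate molecules, and sites of 1 library are not replicates of a condition. The labels do not say that the 3 control libraries came from separate cultures. No test was made, since an exact permutation of 3 against 1 libraries cannot give p below 0.25 and other antibodies have 1 library per condition. The transcript in the annotation was matched to its gene by RefSeq accession (GRCm38.p6). The lists hold no expression values, so the cell type was not checked against markers.

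Members and lists were chosen with earlier results of these data known. Named sites are the 5 with the best mean rank over the 3 control lists in each of the 4 groups, the leading 10 promoter sites, genes with 3 or more sites, members of the muscle, myogenic, RNA-binding and neuronal lists, and Filip1, Myod1, Myog, Acta1, Cdkn1a and Tardbp. Other named sites, and counts by the gene whose transcript holds a site, were added after values were seen. Some members of these lists are counted but not reported here by name. Scripts were tested on simulated data. Alternatives changed the overlap, the score limit, list length, repeats, merging of near sites and the replicates used. Python 3.11.15, numpy 2.4.6, pandas 2.3.3 and scipy 1.17.1 were used.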

Additional observations from a re-analysis of the deposited data

How the results depend on the processing

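The number of shared sites was 1565. It fell to 820 when each list was limited to scores no lower than its median and to 747 with lists of equal length (8162 peaks), to 1210 without peaks in repeats, and it was 2911 to 3975 when 1 control library was left out and the remaining pair had to agree. The percentage in the control Pol II S2P list, 37.8%, became 35% where 50% of the shorter peak had to overlap, 43.8% with peaks extended by 500 bp, 34.1% with the score limit, 36.6% without repeats, and 31.4 to 31.7% with 1 control left out. The percentage in the siMyolinc TDP-43 list, 10.2%, became 8.57% with the 50% overlap, 17.0% with the extension and 6.43% with lists of equal length. It was 9.72 to 9.94% with 1 control left out. The difference in exon share between sites in and out of the siMyolinc list, -1.65 points, became 8.55 points with the extension, and ran from 0.89 to 5.77 points with 1 control left out. The difference by Pol II S2P, 0.15 points, ran from 0.82 to 1.97 points with 1 control left out and its interval included 0 under all 11 alternatives. Counting the sites as peaks of replicate 2 or 3 gave 1574 and 1564. Of 118 values over 11 results, 94 stayed within the interval or range of the value reported, 24 did not; where a value moved, the cause was not tested. Depth limits the weakest sites, which carry 4 tags. No paired analysis was possible because control TDP-43 is the only group with more than 1 library, so no other group shares its replicate numbers.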
